A study of Mus musculus with 6 samples.

Results

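Eukaryotic translation initiation factors (eIF) and elongation factors (eEF) were followed in epididymal white fat of mice given a beta3-adrenergic agonist or saline. The members were the probes whose platform gene symbol starts with Eif or Eef and a digit, which gave 72 of the 19200 probes on the array, for 51 of 13409 named genes. Of these genes 45 had 1 probe, and Eif4a2 had 17. At least 2 arrays in each dye orientation measured 68 of the probes, for 49 genes, and these were tested. The probes not tested were the single probes of Eef2 and Eif4a1 and 1 of the probes each of Eif2ak1 and Eif4g2. All 72 probes have an Entrez identifier that RefSeq lists under the same symbol.

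Male C57BL/6J mice of 12 weeks received either saline or CL-316,243 at 1 mg/kg and were killed after 3 hours. The labels give the number of the agonist differently in one place. CL-316,243 activates the beta3-adrenergic receptor, through which fat cells raise cyclic AMP and break down stored triglyceride. RNA of 6 mice was pooled for each treatment, and the saline pool and the agonist pool were hybridised together on 6 two-colour spotted arrays. Arrays 1 to 3 carried the CL-316,243 pool in channel 1 and arrays 4 to 6 carried it in channel 2. The arrays therefore repeat the measurement of 1 pool against 1 pool: p-values cover the spread between arrays, not between mice. Each value is a log ratio of the pools, taken as log2, and the labels do not say which pool is the numerator. "Higher" and "lower" below mean the level in the numerator pool. Among the 90 probes whose mean ratio was at least 1 in size in both orientations, 89 had the same sign in both. This count is a description, since the rows of the arrays were matched by their likeness, and the ratios were used with their deposited signs.

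Protein synthesis starts when eIF2 brings the initiator tRNA to the small ribosomal subunit, helped by eIF1A and the large eIF3 complex. The cap-binding factor eIF4E, the scaffold eIF4G and the RNA helicase eIF4A, with its cofactors eIF4B and eIF4H, load that subunit onto the mRNA. Elongation is then driven by eEF1A, which delivers aminoacyl-tRNA, by its exchange factor eEF1B, and by eEF2, which moves the ribosome along. Well-known brakes act here: 4E-BP proteins hold eIF4E until mTORC1 phosphorylates them, and kinases of the eIF2 alpha subunit slow eIF2B, the exchange factor that recharges eIF2.

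The deposited columns had lost spots and closed up, so each was placed on probe numbers from its likeness to the other arrays. Values were kept for 97.4%, 65.2%, 96.5%, 91.8%, 99.0% and 99.8% of probes on arrays 1 to 6. A high share kept does not show that the places are right. With each array placed from its own orientation, 98.4%, 64.9% and 95.9% of probes were kept on arrays 1 to 3. Only 42.9%, 62.2% and 43.1% of positions kept both ways were the same there, while those of arrays 4 to 6 did not change. The places on arrays 1 to 3 are therefore not settled, and the ratios below rest on the first placement. After placement the mean rank correlation of array pairs was 0.28 within an orientation and 0.109 between orientations, against 0.004 and -0.002 with rows as deposited. These correlations are a description, since the placement itself uses them. Over all probes 729 of 18340 passed limma's adjusted p under 0.05, which is 3.97%; 495 were higher (2.7%) and 234 lower (1.28%). Probes for genes of the seminal vesicle and epididymis, which lie against this fat depot, were lower. Of the 6 probes of this list that were tested, 5 passed (median -2.45), led by Svs5 at -5.47 ± 0.47 (SE, n = 6 arrays; adjusted p = 0.00047), and their part in the results below was not tested. No probe passed among markers of adipocytes (6 tested, from -0.47 to 1.17), macrophages (4, from -0.51 to 0.56), endothelial cells (4, from -0.51 to 0.12), mesothelium (2, from -0.02 to 0.14) or fibroblasts (5, from -0.12 to 0.17). Unadjusted p was under 0.05 for 3, 2, 1, 0 and 0 of them in that order. Log ratios carry no level, so the tissue could not be checked by the amount of its markers. In such bulk RNA, fewer cells of a type and less RNA per cell cannot be told apart.

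Of the 68 factor probes tested, 5 passed the threshold, which is 7.35% against 3.97% of all probes; 3 were higher (4.41%) and 2 lower (2.94%). The genes were Eif3b, Eif1a and Eif5a, higher, and Eif4b and 1 of the 17 Eif4a2 spots, lower. The median log2 ratio was -0.07 over the 68 probes and 0.03 over the 51 that are not Eif4a2, against -0.001 for all probes. Ratios were under 0.5 in size for 58 of the 68, and for 93.1% of all probes. Without adjustment, 21 of the 68 had a p under 0.05, beside 17.1% of all probes, and 9 of the 21 were spots of Eif4a2. With the probes of each gene averaged first, 4 of 49 genes passed (Eif3b, Eif5a, Eif4b and Eif1a), against 3.31% of all genes. Before adjustment, 12 of the 49 genes had a p under 0.05, beside 18.5% of all genes.

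**Figure D1:**
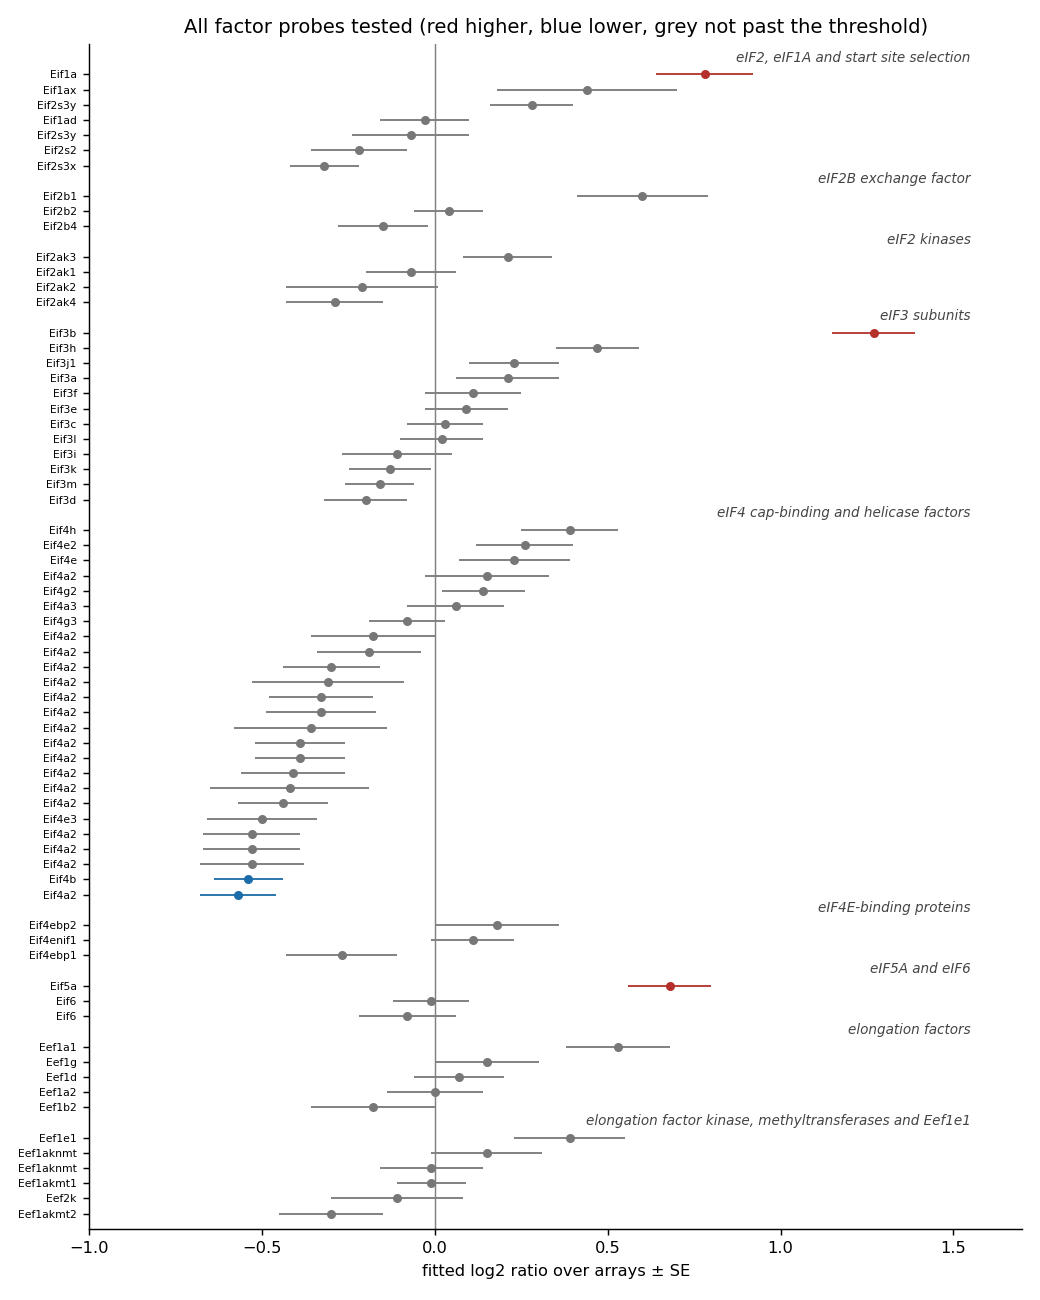
Fitted log2 ratio of the 68 factor probes tested, grouped by role; each point is 1 probe and each bar its standard error over the arrays. Red points are higher and blue points lower in the numerator pool at an adjusted p under 0.05: Eif3b stands at 1.27, and the Eif4a2 spots lie mostly left of 0.

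Promoters of 4 factors described below are shown first, since cyclic AMP acts on many genes through the sequence TGACGTCA, the cyclic AMP response element. RefSeq windows of 300 bases, from 250 before to 50 after the annotated start (GRCm38.p6), were matched for 40 of the 51 genes, 55 windows in all. The 4 windows printed are those of Eif3b (chr5:140419055-140419354, plus strand), Eif4b (chr15:102073523-102073822, plus strand) and the paralogues Eif4a1 (chr11:69672374-69672673, minus strand) and Eif4a2 (chr16:23107218-23107517, plus strand), each the only window of its gene in the table. Eif5a, with 6 windows, is not printed: 3 of them held TGACG, 3 CACGTG and 1 CCAAT. Capitals mark TGACG, its reverse complement CGTCA, the E-box CACGTG and CCAAT with its reverse complement ATTGG.
Eif3b: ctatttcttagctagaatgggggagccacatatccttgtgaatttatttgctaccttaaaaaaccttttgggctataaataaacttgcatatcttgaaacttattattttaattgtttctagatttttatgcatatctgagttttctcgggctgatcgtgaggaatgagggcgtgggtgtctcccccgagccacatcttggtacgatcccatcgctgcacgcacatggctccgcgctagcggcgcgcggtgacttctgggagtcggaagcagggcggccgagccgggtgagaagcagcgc
Eif4b: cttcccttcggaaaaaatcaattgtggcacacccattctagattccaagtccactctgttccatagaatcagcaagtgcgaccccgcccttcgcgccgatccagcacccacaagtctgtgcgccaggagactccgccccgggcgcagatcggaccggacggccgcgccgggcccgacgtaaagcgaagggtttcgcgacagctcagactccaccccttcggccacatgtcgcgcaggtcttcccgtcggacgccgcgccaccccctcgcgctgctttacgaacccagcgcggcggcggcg
Eif4a1: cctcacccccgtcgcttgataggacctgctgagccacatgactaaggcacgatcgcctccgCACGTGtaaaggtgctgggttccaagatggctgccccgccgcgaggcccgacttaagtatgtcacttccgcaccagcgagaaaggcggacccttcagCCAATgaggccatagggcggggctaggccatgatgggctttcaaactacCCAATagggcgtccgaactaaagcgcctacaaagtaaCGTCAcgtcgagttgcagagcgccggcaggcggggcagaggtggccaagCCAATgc
Eif4a2: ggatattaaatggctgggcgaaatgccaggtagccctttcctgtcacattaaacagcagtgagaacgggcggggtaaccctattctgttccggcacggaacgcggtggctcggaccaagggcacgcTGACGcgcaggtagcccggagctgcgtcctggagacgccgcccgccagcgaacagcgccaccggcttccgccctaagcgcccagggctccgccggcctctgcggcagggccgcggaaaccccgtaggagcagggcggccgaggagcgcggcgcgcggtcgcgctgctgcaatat

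The windows of Eif3b and Eif4b held none of these motifs, and that of Eif4a2 held 1 TGACG, 124 bases before the start. The Eif4a1 window held 1 CGTCA, 6 bases before the start, 1 CACGTG and 3 CCAAT. The complete TGACGTCA was in 1 of the 55 factor windows (1.82%), that of Eef2, and in 1.79% of 32851 windows of all genes. TGACG, which lies within TGACGTCA, was in 25 factor windows (45.5%) and in 20.8% of all. CACGTG was in 12 (21.8%, against 7.15%) and CCAAT in 13 (23.6%, against 37.4%), each counted on both strands. The factor windows were richer in G and C, with a median of 61.7% against 52.7%, and several belong to the same gene. A match of letters describes the window and is not a binding site.

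Eif3b had the largest fitted ratio of the 68 probes tested, which do not include Eif4a1. It encodes a core subunit of eIF3, the complex that holds the small ribosomal subunit ready for mRNA. Its log2 ratio was 1.27, 1.50, 0.87, 1.47, 1.35 and 1.15 on arrays 1 to 6. All 6 values lay above 0 and the orientations overlapped, with means of 1.21 ± 0.32 and 1.32 ± 0.16 (SD, n = 3 arrays each). The fitted ratio was 1.27 ± 0.12 (SE), a 2.41-fold higher level (limma, adjusted p = 0.000653 over all probes). The spots printed beside it, Gpr31b and Nkg7, had ratios of -0.36 and -0.18. With the median of neighbouring spots subtracted, Eif3b stood at 1.35 ± 0.10.

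The other 11 eIF3 subunits did not pass, and they went both ways. Of all 12 probes 8 were positive and 4 negative, with a median of 0.06. Eif3h, which helps scanning ribosomes on some mRNAs, came next with 0.85, 0.62, 0.12, 0.10 and 0.41 on arrays 1, 3, 4, 5 and 6. Every array was positive, and the arrays with the agonist in channel 1 were higher. Its fitted ratio of 0.47 ± 0.12 had an adjusted p of 0.0766. Eif3a, the scaffold subunit, was at 0.21 ± 0.15, Eif3j1 at 0.23 ± 0.13 and Eif3c, another core subunit, at 0.03 ± 0.11. The lowest was the cap-binding subunit gene Eif3d at -0.20 ± 0.12. Eif3e, at 0.09 ± 0.12, averaged 0.46 ± 0.07 (SD, n = 2) on the arrays with the agonist in channel 1 and -0.29 ± 0.14 (n = 3) on the others, so its mean hides opposite signs. Eif3m did the opposite, with means of -0.37 ± 0.13 and 0.05 ± 0.16 (n = 3 each).

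Eif1a encodes eIF1A, which keeps the scanning ribosome open until the start codon is found. Its ratio was 0.63, 0.51, 1.28, 1.12 and 0.59 on arrays 1, 3, 4, 5 and 6, positive on each array that measured it. The fitted ratio was 0.78 ± 0.14, a 1.72-fold higher level (adjusted p = 0.0178). The call was lost without array 4 (adjusted p = 0.0558) and without array 5 (adjusted p = 0.0845), with ratios of 0.71 and 0.75. With each array placed from arrays of its own orientation the ratio fell to 0.41 (adjusted p = 0.229). Eif1ax is a near-identical gene of the same factor, and the files do not say whether the probes tell them apart. Eif1ax itself was at 0.44 ± 0.26 (adjusted p = 0.448). Array 3 alone was far up for Eif1ax, at 2.04, while the others ran from -0.20 to 0.57. Eif1ad, a gene related by sequence, was at -0.03 ± 0.13.

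No subunit of eIF2 passed. Eif2s3x, the gamma subunit, which binds GTP and the initiator tRNA, read 0.03, -0.12 and 0.01 on arrays 1 to 3 and -0.53, -0.63 and -0.68 on arrays 4 to 6. The orientations did not overlap, and the fitted ratio was -0.32 ± 0.10 (adjusted p = 0.12). The probes of Eif2s3y, its copy on the Y chromosome, gave 0.28 ± 0.12 and -0.07 ± 0.17. Copies this alike may share signal. Eif2s2, the beta subunit, was at -0.22 ± 0.14, with means of 0.15 ± 0.14 (SD, n = 2) and -0.60 ± 0.38 (n = 3) in the orientations.

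Of the eIF2B exchange factor, 3 subunits were on the array and none passed. Eif2b1, the regulatory alpha subunit, was positive at 1.00, 0.45 and 0.95 on arrays 1, 5 and 6 and 0.00 on array 3, giving 0.60 ± 0.19 (adjusted p = 0.152) from 4 arrays. Eif2b2 was at 0.04 ± 0.10 and Eif2b4 at -0.15 ± 0.13. No tested probe of the kinases that phosphorylate eIF2 passed either. Eif2ak3 (PERK, the endoplasmic reticulum sensor) was at 0.21 ± 0.13 and Eif2ak2 (PKR, the sensor of double-stranded RNA) at -0.21 ± 0.22. Eif2ak4 (GCN2, the amino acid sensor) was at -0.29 ± 0.14 and the tested probe of Eif2ak1 (HRI, the heme-regulated kinase) at -0.07 ± 0.13. Their adjusted p-values ran from 0.365 to 0.833.

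**Figure D2:**
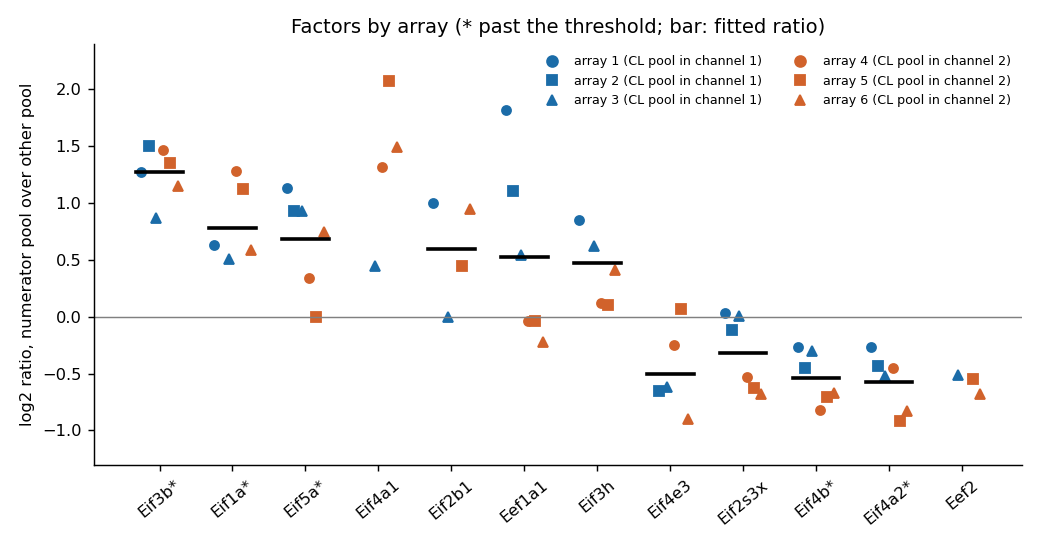
Log2 ratio of 12 factors on each array, with blue symbols for arrays with the CL-316,243 pool in channel 1 and orange for channel 2; the bar is the fitted ratio, and asterisks mark probes past the threshold. Eif3b is at 0.87 or more on every array, whereas Eef1a1 is above 0 only on arrays 1 to 3 and Eif4a1 and Eef2 lack values on several arrays. Eif4a2 is drawn as spot 13531, chosen as its spot with the lowest adjusted p and the only 1 of its 17 past the threshold. The mean of all 17 spots, -0.35, did not pass (limma, adjusted p = 0.112).

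Among the eIF4 factors, which recruit the ribosome to the mRNA cap, 2 of 25 probes passed and both were lower. Over all probes 3.97% passed and 1.28% were lower. Of the 25 probes, 17 were spots of Eif4a2. With the probes of each gene averaged first, Eif4b passed and Eif4a2 did not. Eif4b encodes the cofactor that raises the helicase activity of eIF4A. It read -0.27, -0.45 and -0.30 on arrays 1 to 3 and -0.82, -0.71 and -0.67 on arrays 4 to 6. All values were below 0, and those of the second orientation lay below those of the first. The fitted ratio was -0.54 ± 0.10, a 1.45-fold lower level (adjusted p = 0.0177). It did not pass without array 1 (-0.55, adjusted p = 0.0594), array 4 (-0.52, 0.0619) or array 5 (-0.54, 0.0812).

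Eif4a2 encodes the second form of the eIF4A helicase and is the best-covered member. Besides probe 1843, it was spotted 16 times as one of the array's regularly repeated genes. The fitted ratio was negative for 16 of its 17 spots, from -0.57 to 0.15, with a median of -0.39. Spot 13531 passed, with -0.27, -0.43, -0.52, -0.45, -0.92 and -0.83 on arrays 1 to 6, all below 0. Its fitted ratio was -0.57 ± 0.11 (adjusted p = 0.0204), and it did not pass without array 1 (0.0595), array 5 (0.106) or array 6 (0.0594). Without adjustment 9 of the 17 had a p under 0.05. The 16 repeated spots had means of -0.35 ± 0.41, -0.41 ± 0.26, -0.29 ± 0.36, -0.58 ± 0.55 and -0.59 ± 0.39 on arrays 1, 3, 4, 5 and 6 (SD, n = 16 spots) and 0.05 ± 0.69 on array 2 (n = 14). Array 2 was the exception, and it is also the array with the fewest placed values. The mean of all 17 spots, the value that counts the gene once, was -0.35 ± 0.11 (SE, n = 6 arrays), a 1.27-fold lower level that did not pass (adjusted p = 0.112). With neighbouring spots subtracted, 5 of the 17 passed, beside 4.86% of all probes.

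Other genes repeated in the same way give the scale of these spots. Rpl5 had a median of -0.05 over 15 spots (10 negative) and Gapdh 0.13 over 17 (15 positive), with none past the threshold. Nup62 and Top1 were positive at all 16 spots each, with medians of 0.18 and 0.2. Tcea1 was negative at 13 of 15 spots (median -0.2) and Ldha at 12 of 16 (-0.15), and Cyc1 was positive at 11 of 16 (0.12). None of these spots passed either. A mostly shared sign over the spots was therefore not particular to Eif4a2. Tcf3, a transcription factor gene printed next to Eif4a2 at every repeat, had a median of -0.41 over 16 spots, of which 15 were negative and 2 passed. The heat shock gene Hspa1a, 2 spots away on the other side, had a median of 0.34 over 14 spots, all positive, and 3 passed. Repeats of a gene were printed every sixth spot within a few blocks of the array.

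**Figure D3:**
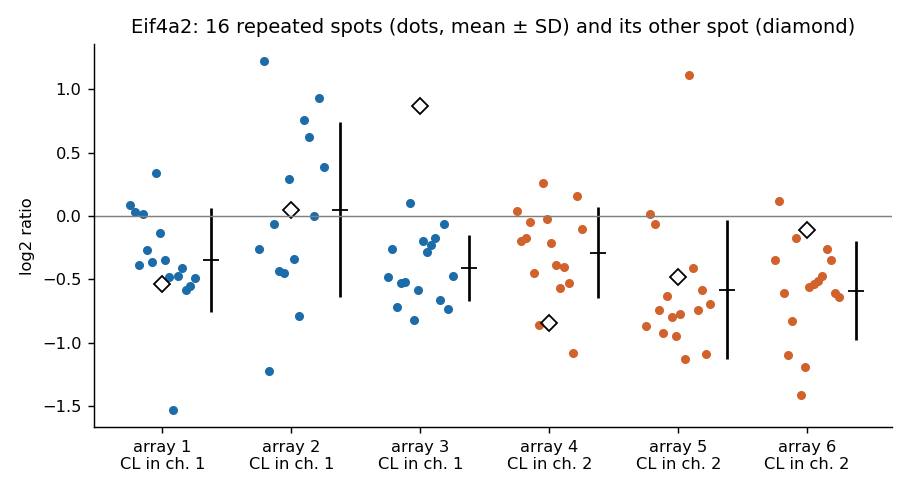
Log2 ratio of each Eif4a2 spot on the 6 arrays: dots are the 16 repeated spots, the bar to their right is their mean ± SD, and the open diamond is probe 1843. The mean lies between -0.59 and -0.29 on 5 arrays and at 0.05 on array 2.

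Eif4a1, the main form of the helicase, read the opposite way where it was measured. Its ratio was 0.45, 1.32, 2.07 and 1.49 on arrays 3, 4, 5 and 6, above 0 on each, but only 1 array of the first orientation was kept and the probe was not tested. When positions with a posterior of at least 0.8 were accepted, array 1 added 0.95. The fitted ratio was then 1.16 ± 0.15, a 2.24-fold higher level (n = 5 arrays; adjusted p = 0.00775). Arrays 4 to 6 alone gave 1.63 ± 0.18 (adjusted p = 0.00319). With each array placed from arrays of its own orientation the ratio was 0.72 ± 0.14 (adjusted p = 0.0471), and with rows as deposited -0.37 ± 0.23 (adjusted p = 0.947). The mRNAs of Eif4a1 and Eif4a2 are alike in their coding parts, and the files do not say which parts the probes cover. The difference between them was not tested.

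The remaining eIF4 genes did not pass. Eif4h, a cofactor akin to eIF4B, read 0.59, 0.59 and 1.41 on arrays 1 to 3 and 0.09, -0.47 and 0.12 on arrays 4 to 6, for a fitted 0.39 ± 0.14 (adjusted p = 0.192). The cap-binding protein Eif4e was at 0.23 ± 0.16 and Eif4e2, which binds the cap in repressor complexes, at 0.26 ± 0.14. Eif4e3, a further cap-binding relative, was at -0.50 ± 0.16 (adjusted p = 0.133), negative on 4 of 5 arrays. Of the eIF4G family, Eif4g3 was at -0.08 ± 0.11. Eif4g2, the relative that lacks the eIF4E site, gave 0.14 ± 0.12 from its tested probe and 0.31 and 0.32 on the only arrays, 5 and 6, that kept the other. Eif4a3, the helicase of the exon junction complex, was at 0.06 ± 0.14.

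No probe of the eIF4E-binding proteins passed. Eif4ebp1, the best-known target of mTORC1 in fat, read -0.63, 0.03, -0.14 and -0.36 on arrays 1, 3, 5 and 6, and its fitted ratio was -0.27 ± 0.16 (adjusted p = 0.447). Eif4ebp2 was at 0.18 ± 0.18 and Eif4enif1, the carrier of eIF4E into the nucleus, at 0.11 ± 0.12. These are RNA ratios, and phosphorylation, by which the 4E-BPs are switched, was not measured.

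Eif5a encodes eIF5A, the hypusine-bearing factor that relieves stalled ribosomes. It read 1.13, 0.93 and 0.93 on arrays 1 to 3 and 0.34, 0.00 and 0.75 on arrays 4 to 6. The orientations did not overlap, with means of 0.99 ± 0.12 and 0.36 ± 0.38 (SD, n = 3 each). The fitted ratio was 0.68 ± 0.12, a 1.60-fold higher level (adjusted p = 0.0147). Neither orientation passed alone (0.99 with adjusted p = 0.061 and 0.36 with 0.33), and leaving out array 1 gave 0.64 with an adjusted p of 0.0683. Both probes of Eif6, which keeps the large ribosomal subunit from joining too early, were near 0, at -0.08 ± 0.14 and -0.01 ± 0.11.

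None of the 5 tested probes of elongation factors passed, and only that of Eef1a1 had an unadjusted p under 0.05, at 0.00639. Eef1a1, which encodes the abundant carrier of aminoacyl-tRNA, read 1.82, 1.11 and 0.54 on arrays 1 to 3 and -0.04, -0.04 and -0.22 on arrays 4 to 6. It was high in one orientation and slightly below 0 in the other, and the fitted ratio of 0.53 ± 0.15 did not pass (adjusted p = 0.0963). It passed in only 1 of 6 fits with 1 array left out, that without array 3, at 0.68 (adjusted p = 0.0189). Without array 1 the ratio fell to 0.36 (adjusted p = 0.258). Its spot lies 2 places from that of Eif5a, and the spot between them, Ppp3cb, read -0.21. Some ribosomal protein probes elsewhere on the array showed the same split. They were not counted, and Rpl38 was picked after its values were seen. Rpl38 read 1.74, 2.08 and 0.64 on arrays 1 to 3 and -0.27, 0.25 and -0.17 on arrays 4 to 6. Rps4x went the other way, with -0.34 and -1.18 on arrays 1 and 3 and 0.2, 0.03 and -0.08 on arrays 4 to 6. Of all probes measured on 6 arrays, 8.96% had every value of arrays 1 to 3 above every value of arrays 4 to 6.

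Eef1a2, the form of muscle and nerve, was at 0.00 ± 0.14. The subunits of the exchange factor were at -0.18 ± 0.18 for Eef1b2, 0.07 ± 0.13 for Eef1d and 0.15 ± 0.15 for Eef1g. Eef2, the translocase, read -0.51, -0.55 and -0.68 on arrays 3, 5 and 6, below 0 on each, and was not tested. Eef2k, the kinase that halts eEF2, ranged from -1.17 on array 6 to 0.75 on array 2 and was at -0.11 ± 0.19. The lysine methyltransferase genes Eef1akmt1 and Eef1akmt2 were at -0.01 ± 0.10 and -0.30 ± 0.15, and the probes of Eef1aknmt at -0.01 ± 0.15 and 0.15 ± 0.16. Eef1e1, a scaffold of the aminoacyl-tRNA synthetase complex, was at 0.39 ± 0.16 (adjusted p = 0.239).

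The dye orientations were compared for the probes tested. The dye term passed for 0 of 68 factor probes and for 1 of 18340 probes (0.00545%), with 9 of the 68 under 0.05 before adjustment (10.6% of all probes). Of the 44 factor probes measured on all 6 arrays, 7 had orientations that did not overlap (15.9%), beside 18.0% of all such probes. In 6 of the 7 the arrays with the agonist in channel 1 were higher (Eif2s3x, Eif4b, Eif4g2, Eif4h, Eif5a and Eef1a1), and in Eif3m those with it in channel 2. Over all probes the split was 1091 to 1105. Every array that measured the probe gave a positive ratio for 6 of the 68 (8.82%, against 6.92% of all probes tested) and a negative one for 8 (11.8%, against 6.05%), and 6 of these 8 are spots of the one gene Eif4a2, the others being Eif4b and Eif2b4.

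**Figure D4:**
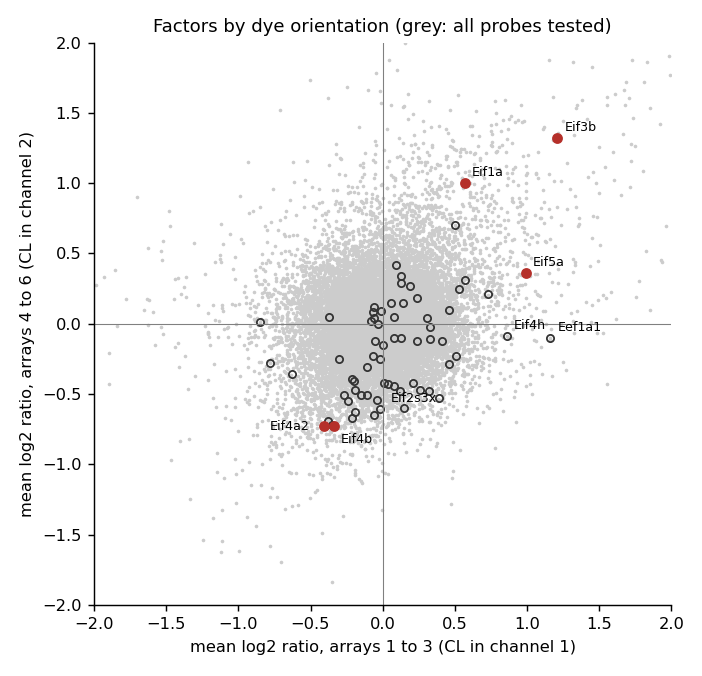
Mean log2 ratio of each factor probe tested (circles) on arrays 1 to 3 against arrays 4 to 6, over all probes tested (grey; both axes end at 2 in size, which leaves out some grey points); red marks the 5 past the threshold. Eif3b lies on the diagonal at 1.21 and 1.32, and Eef1a1 lies at 1.16 and -0.10.

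Genes that act beside the factors were read from lists. In the integrated stress response, which follows phosphorylation of eIF2, 4 of 14 probes passed and all were higher, with a list median of 0.23. Over all probes 3.97% passed and 2.7% were higher. Atf4, the transcription factor whose mRNA is translated when eIF2 is limiting, read 1.98, 2.42, 1.15, 1.24, 1.85 and 1.50 on arrays 1 to 6. No array was below 1, and the fitted ratio was 1.69 ± 0.16, a 3.23-fold higher level (adjusted p = 0.000811). Ppp1r15a and Ppp1r15b, which direct the phosphatase to eIF2, were at 0.83 ± 0.17 (adjusted p = 0.0401, n = 4 arrays) and 0.67 ± 0.12 (adjusted p = 0.0146, n = 6). Ddit3 (CHOP) was at 0.72 ± 0.17 (adjusted p = 0.0458), from -0.17 on array 3 to 1.16 on array 4. Chac1, which breaks down glutathione, was at 0.74 ± 0.18 and did not pass (adjusted p = 0.0599, n = 5 arrays, all positive). Asns was at -0.11 ± 0.13, Atf3 at -0.22 ± 0.19 and Trib3 at 0.25 ± 0.15. The count fell to 1 of 14 without array 4, 1 of 10 without array 5 and 2 of 8 without array 1. The share of all probes that passed fell as well, to 2.0%, 1.19% and 1.8% in that order.

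In the mTORC1 pathway and its brakes 0 of 27 probes passed by limma (3 with an unadjusted p under 0.05; median -0.09). Over all probes 17.1% had an unadjusted p under 0.05. The extremes were Rheb, the activator of mTORC1, at 0.57 ± 0.15, and Pdcd4, an inhibitor of eIF4A, at -0.42 ± 0.12 (adjusted p = 0.0926). Partners at the cap, the poly(A) tail and in scanning gave 0 of 21 (4 unadjusted, median 0.07). They ran from Paip2 at -0.53 ± 0.13 to a Ddx3x probe at 0.70 ± 0.19, while another Ddx3x probe was at 0.05 ± 0.15. Release, recycling and the enzymes that modify eIF5A and eEF2 gave 0 of 17 (3 unadjusted; median -0.05), and mitochondrial translation factors 0 of 7 (0 unadjusted; median -0.07). Cytosolic ribosomal proteins gave 0 of 67 (11 unadjusted), with a median of 0.01 and a range from -0.39 to 0.90.

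**Figure D5:**
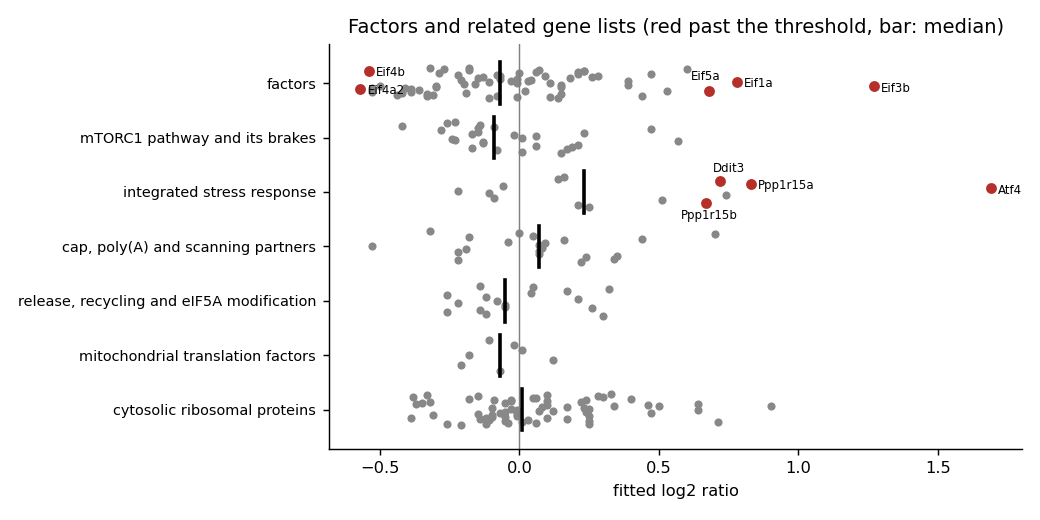
Fitted log2 ratio of the factors and 6 related gene lists; each point is 1 probe, red points passed the threshold and the bar is the median. The list medians lie between -0.09 and 0.23, and Atf4 at 1.69 is the farthest point to the right.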

How the data were processed

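The deposited values are log2 ratios (base taken as 2, since the labels give none) of both channels of 6 two-colour arrays. Per the labels' protocols, pooled RNA was labelled with fluorescein (Cy3) or biotin (Cy5), amplified with tyramide, scanned, quantified, and normalized by the authors with a uniform scale factor and LOWESS. For the numerator, the background correction and the spot signal, nothing is stated in the labels, so the number of arrays limits the precision.

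Columns held empty cells only at their ends (29, 724, 38, 169, 8 and 1 on arrays 1 to 6). Columns were set onto probe numbers by a hidden Markov model in which spots can only be lost, on values less the median of neighbouring spots (3 either way, rows of 20), and kept at a posterior of at least 0.95. The placement uses likeness between arrays and so raises it. With the factors' own values given no weight, all positions kept in both placements were the same. This left out only 72 of 19200 probes, so it could hardly move a position and is no check of the placement. With each array placed from its own orientation, 42.9%, 62.2% and 43.1% of such positions were the same on arrays 1 to 3. Ratios were fitted with limma 3.58.1 (lmFit, eBayes; R 4.3.3) on an intercept and dye orientation, over 18340 probes with at least 2 arrays per orientation, and adjusted by Benjamini-Hochberg over all. The placement and test were also run on simulated data, with losses drawn as the model assumes and no trend between neighbouring spots. Such a run cannot show that the real columns were placed rightly. Names come from the platform annotation: 14711 probes have 1 symbol, 6 several and 4483 none. Python 3.11.15 was used.

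Members and lists were chosen with earlier results of these data known. Named were all factor probes past the threshold, all probes of the main factors, and of the lists those past the threshold, with others as contrast, chosen after their values were seen. Alternatives tried were the placement, scaling, centring, the model, gene means, each array left out and each orientation alone; subtracting neighbouring spots and other placements were added after the data were seen.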

Additional observations from a re-analysis of the deposited data

Results flagged for a closer look

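Of 70 factor probes with 4 or more arrays, 4 had 1 array far from the others by Dixon's criterion, of which chance gives about 1 in 20 groups. Eif1ax read 2.04 on array 3, with the others between -0.20 and 0.57. The other 3 are Eif4a2 spots on array 2: 13137 read 1.22 (others from -0.26 to 0.12), 14749 read 0.76 (others from -0.47 to -0.17) and 15131 read 0.62 (others from -0.74 to -0.26). Array 2 is the array with the fewest placed values, 65.2% of probes.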

How the results depend on the processing

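The count of factor probes past the threshold was 5. It was 0 with rows read as deposited. Array weights gave 12 (17.6%, against 8.06% of all probes), and subtracting neighbouring spots' median gave 9 (13.2%, against 4.86%). Arrays 1 to 3 alone gave 1 (1.47%, against 0.362%). With 1 array left out it was 1 to 5. Without array 1 it was 1 of 46 tested (2.17%, against 1.8% of all probes). Without array 5 it was 2 of 63 (3.17%, against 1.19%). With rows as deposited no probe of 19162 passed, and Eif5a turned to -0.24 (adjusted p = 0.947). The median of the factors, -0.07, was 0.031 with gene means and 0.049 on arrays 1 to 3 alone; gene means count Eif4a2 once. The dye term passed for 1 factor when each array was placed from its own orientation; there 42.9%, 62.2% and 43.1% of the values of arrays 1 to 3 kept their place. Eif3b passed in 22 of 23 alternatives (the exception being rows as deposited), Eif5a in 19 of 23, Eif4b and Eif4a2 spot 13531 in 17 of 23 each, and Eif1a in 15 of 20. The integrated stress response, 4 of 14, gave 0 as deposited and 1 with own-orientation placement, where 1.69% of all probes passed. On arrays 1 to 3 alone it gave 1 (0.362% of all probes). With 1 array left out it gave 1 to 4 (1.19% to 4.26% of all probes). The mTORC1 list, 0, gave 1 with own-orientation placement, 3 with array weights and 2 with neighbouring spots subtracted, and the cap partners, 0, gave 2 with array weights. Ribosomal proteins, 0, gave 1 with a posterior of at least 0.99, values on all 6 arrays, SD scaling, robust eBayes or placement from arrays 4 to 6, 2 with array weights, and 0 to 1 with 1 array left out. Unless stated, the cause was not tested. Placement from arrays 4 to 6 alone set 1.0% of array 2. Every array holds both pools, so each ratio already pairs them. Arrays could not be paired further between orientations because replicate numbers within an orientation only follow accession order. The spot signal is unknown, so dim spots could not be set apart.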

Other observations

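Of 3 tested probes for brown-fat genes, 2 were higher in the numerator pool, beside 2.7% of all probes tested. Dio2, the enzyme that activates thyroid hormone, read 0.98, 1.60, 0.17, 1.98, 1.34 and 0.99 on arrays 1 to 6 (fitted 1.18 ± 0.19 SE, limma adjusted p = 0.00959). Ppargc1a, a coactivator of mitochondrial genes, was at 0.77 ± 0.16 (adjusted p = 0.0291). Both were positive on 6 of 6 arrays. Ucp1, the uncoupling protein that defines brown fat, was at 0.49 ± 0.14 (n = 4 arrays) and did not pass (adjusted p = 0.0974). Of the untested factors, the second Eif2ak1 probe read -0.06, -0.41, 0.54 and 0.28 on arrays 1, 4, 5 and 6.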
